A study of Homo sapiens with 2 samples.

Results

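The mitochondrial ribosomal protein mRNAs are the nuclear-encoded transcripts whose gene names begin with MRPL or MRPS. The annotation (GENCODE release 44 lifted to GRCh37, basic transcripts) held 78 such protein-coding genes of 20176, 49 for the large and 29 for the small subunit, with 41037 exonic cytosines. Members of the set were all cytosines on their exons, on the same strand, with a coverage of at least 10, where coverage is the count of unconverted plus converted reads. This gave 8898 sites on 74 genes in MCF10A, of 1584002 kept sites in all, and 6788 sites on 67 genes in MDA-MB-468, of 1271253. The study compared RNA of MCF10A, a normal mammary epithelial cell line, with that of MDA-MB-468, a line of breast cancer cells, by bisulfite sequencing of poly(A)-selected RNA. Each line gave 1 library from untreated cells, so there was no replicate and every test below compares 2 libraries, not 2 conditions. The labels give DMEM for both lines, while the study's methods describe different media and supplements for each, and neither source states which passage was used. The RNA of both was treated with bisulfite at 60 degrees for 8 hours.

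The mitochondrial ribosome translates the mRNAs of the mitochondrial genome, all of which encode subunits of the respiratory chain and the ATP synthase. Its ribosomal RNAs are made in the organelle, but all of its proteins come from nuclear genes, are translated in the cytosol and are imported, in most cases with an N-terminal targeting sequence. In RNA bisulfite sequencing, unmodified cytosines are read as thymines while 5-methylcytosine (m5C) stays a cytosine, and cytosines in base-paired RNA also resist conversion. NSUN2 is the best known methyltransferase that places m5C on mRNAs.

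Most m5C sites of these mRNAs lay in a few short stretches, and 5 of them are printed here from GRCh37 in the 5′ to 3′ direction of the RNA, with T for U. Capitals mark the cytosines called m5C in at least 1 line. The MRPS15 stretch was called in MDA-MB-468 alone, the MRPL34 stretch and the MRPS25 site were called in both lines, and the MRPL14 and MRPS21 stretches were called in MCF10A alone.
MRPS15, coding sequence, chr1:36929783-36929812, minus strand: taCCCgggCtgCcgggCggtgggagCgCCa
MRPL34, coding sequence, chr19:17417027-17417056, plus strand: accccgcagCaggCCCggggCaaggctcgc
MRPS25, 3′UTR, chr3:15093318-15093347, minus strand: caggccagcctcactCaggcacgtacctgc
MRPL14, 5′UTR, chr6:44095107-44095136, minus strand: aaggCggCgCttggCtggtggggCCCgcgg
MRPS21, coding sequence, chr1:150280532-150280561, plus strand: atgagaagccatgCCgCcggcgacagaggg

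In MCF10A, 36 of the 8898 member sites were m5C sites, or 0.405% (95% Wilson interval 0.292% to 0.560%), beside 0.960% of all kept sites of that library. In MDA-MB-468, 28 of 6788 were called, or 0.412% (0.286% to 0.596%), beside 0.840% of all kept sites. An m5C site here is one whose unconverted count exceeded the background of its library at an adjusted p under 0.05 (one-sided Fisher's exact test, Benjamini-Hochberg over all kept sites). The background, the unconverted share over all kept sites, was 1.99% in MCF10A against 1.81% in MDA-MB-468. Both member shares were thus below those of the libraries as a whole, whose kept sites also include non-coding exons and the mitochondrial chromosome. Intervals here and below treat sites and counts as independent and leave out any spread between cultures. Neighbouring cytosines share reads, so intervals over several cytosines are too narrow. The calls lay on 13 genes in MCF10A, 17.6% of the members with kept sites beside 21.1% of all protein-coding genes, and on 6 genes in MDA-MB-468, 9.0% beside 16.9%.

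The calls were concentrated in few transcripts. MRPL14 with 9 sites, MRPS21 with 6, MRPL30 with 5 and MRPL34 with 5 held 25 of the 36 in MCF10A, where 7 of the 13 genes had a single site. MRPS15 with 9 and MRPS18B with 8 held 17 of the 28 in MDA-MB-468. Over both lines there were 59 different sites on 16 genes, and 62 of the 78 members had none. Methylation ratios, the unconverted share of a site's reads, ran from 6.90% to 85.7% at the called sites of MCF10A (median 25%) and from 5.23% to 60.0% at those of MDA-MB-468 (median 36.0%). A call took at least 4 unconverted reads at a coverage of 10 and at least 6 at a coverage of 50 in either library, so weak methylation of a thinly covered mRNA was not detectable.

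MRPS15 held all 7 cytosines of the set that passed the test between the libraries. MRPS15 is the counterpart of bacterial S15, an rRNA-binding protein of the small subunit, and its stretch of 27 nt begins 66 nt downstream of the first base of the start codon, in the same exon. It holds 10 cytosines, of which 9 were called in MDA-MB-468 and none in MCF10A. Summed over these 10, 275 of 817 counts were unconverted in MDA-MB-468, or 33.7% (30.5% to 36.97%), against 18 of 701 in MCF10A, or 2.57% (1.63% to 4.02%). The 10 cytosines share reads, with coverages of 71 to 94 in MDA-MB-468 and 58 to 89 in MCF10A. Their counts and the 7 passing tests are therefore not independent, and both intervals are too narrow. The site with the highest ratio, at position 36929808, had 47 unconverted of 94 reads in MDA-MB-468 and 4 of 85 in MCF10A. Its difference of 45.3 percentage points had an adjusted p of 1.32e-08 (two-sided Fisher's exact test, Benjamini-Hochberg over the 812729 sites kept in both libraries).

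Of the other 9 MRPS15 cytosines of the stretch, 7 had ratios from 26.6% to 45.8% in MDA-MB-468, and the remaining 2 were low in both libraries. Position 36929804 had 38 of 83 reads unconverted in MDA-MB-468 and 1 of 79 in MCF10A, with the lowest adjusted p of the set, 4.96e-09 by the same exact test. Position 36929796 had 35 of 77 against 0 of 58, where the upper Wilson limit was 6.21%. At the 3′ end of the stretch, positions 36929784 and 36929785 each had 25 of 71 reads unconverted in MDA-MB-468, against 0 of 58 and 4 of 58. The exact test gave an adjusted p of 7.85e-05 for the former and 0.105 for the latter, which therefore did not pass although its ratio in MDA-MB-468 was the same. Position 36929801, in the middle, had the lowest ratio of the 9 called sites, 8 of 81 reads beside 3 of 66 in MCF10A (exact test, adjusted p = 1). Its neighbour on the 3′ side, the 1 cytosine of the stretch with no call, had 4 of 81 reads (4.94%) beside 1 of 66.

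The high ratios ended sharply at both edges. Within 30 nt on either side of the stretch, 15 further cytosines had an unconverted share of 2.38% (1.53% to 3.69%) in MDA-MB-468 and 3.33% (2.27% to 4.87%) in MCF10A. None of the 9 called cytosines was predicted to be base-paired, and the 21-nt window around each occurs once in GRCh37. The annotation lists 1 pseudogene of MRPS15, which had no kept site in either library. Over all of its sites MRPS15 had the highest unconverted share in MDA-MB-468 among the members with at least 1000 counts, 9.13% (8.29% to 10.04%), and its sites outside the stretch had 3.08% there and 4.43% in MCF10A.

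**Figure D1:**
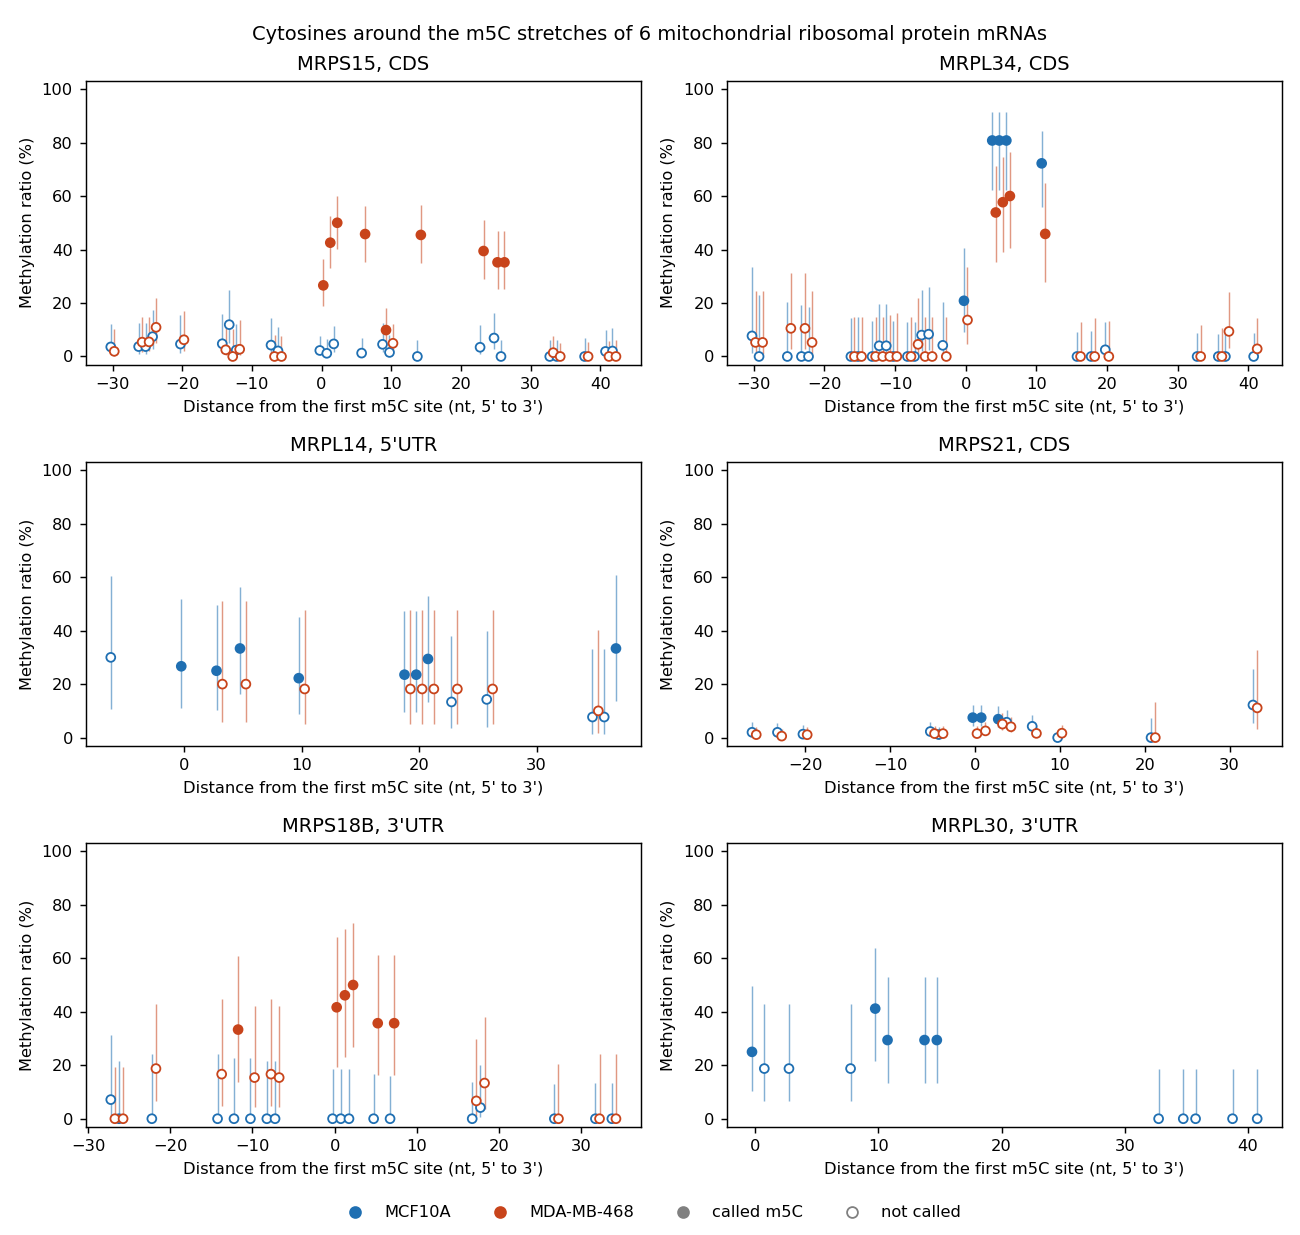
Methylation ratio in percent (vertical axis, bars are 95% Wilson intervals) of the kept cytosines around 6 m5C stretches, against the distance in nt from the first called cytosine of the stretch; blue is MCF10A, orange is MDA-MB-468, and filled points were called m5C. The MRPS15 points of MDA-MB-468 reach 50% while those of MCF10A stay at or below 6.90% within the stretch, and the MRPL34 points are high in both libraries.

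MRPL34 and MRPS25 were the members with calls in both lines at the same cytosines. MRPL34 is the counterpart of bacterial L34, a small protein of the large subunit. Its stretch begins 126 nt downstream of the first base of the start codon and spans 12 nt with 5 cytosines, all called in MCF10A and 4 of them in MDA-MB-468. At positions 17417040, 17417041 and 17417042, each with 21 of 26 reads unconverted in MCF10A, the MDA-MB-468 counts were 14 of 26, 15 of 26 and 15 of 25. Position 17417047 had 26 of 36 reads, or 72.2% (56.0% to 84.2%), in MCF10A and 11 of 24, or 45.8% (27.9% to 64.9%), in MDA-MB-468. All of these 4 sites had a lower ratio in MDA-MB-468, with differences of -26.9 to -20.8 percentage points, but none passed the exact test between libraries, with unadjusted p from 0.0581 to 0.132 and an adjusted p of 1. The same 4 were predicted to be base-paired, a class of site that the study's own filter removed, and they are absent from the counts made without paired bases.

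MRPS25, a small-subunit protein with no bacterial counterpart, had a single isolated site in its 3′UTR at position 15093332. It had 12 of 14 reads unconverted in MCF10A, 85.7% (60.1% to 96.0%), and 7 of 12 in MDA-MB-468, 58.3% (31.95% to 80.7%). These intervals overlap, and the exact test between the libraries gave an unadjusted p of 0.190. It was the site with the highest ratio of the set in MCF10A, was also predicted to be base-paired, and its 21-nt window occurs once in the genome.

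MRPL14 and MRPS21 carried the most calls in MCF10A, and none was called in MDA-MB-468. MRPL14, a large-subunit protein, had 7 of its calls within 22 nt of the 5′UTR, between the 58th and the 79th nucleotide of the canonical transcript, and another at the 95th. The 7 sites had ratios from 22.2% to 33.3% at coverages of 15 to 18 in MCF10A. In MDA-MB-468 the 6 of them with a coverage of at least 10 had ratios from 18.2% to 20% at coverages of 10 or 11, where 2 unconverted reads were too few for a call. Summed over the stretch the unconverted share was 26.3% in MCF10A against 18.8% in MDA-MB-468. Each of the 6 MDA-MB-468 cytosines had 2 unconverted reads, which may be the same 2 reads. At 2 of 11 reads the interval is 5.14% to 47.7%, so the MDA-MB-468 level is uncertain. The absence of the stretch from the MDA-MB-468 calls does not show a lower level there. The coding site of MRPL14 at position 44081644 had 5 of 27 reads unconverted in MCF10A against 1 of 53 in MDA-MB-468 (exact test, unadjusted p = 0.0152, adjusted p = 1).

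MRPS21, the counterpart of bacterial S21, had 6 called cytosines in its coding sequence in MCF10A. The 3 at 146 to 149 nt downstream of the first base of the start codon had the highest coverage of any called site in that line, with 13, 13 and 12 of 174 reads unconverted. The MDA-MB-468 library had 3 of 200, 5 of 199 and 10 of 198 reads there, and the smallest unadjusted p of the exact test was 0.00826 (adjusted p = 1). The other 3 had ratios from 17.1% to 22.9% in MCF10A and from 3.70% to 6.25% in MDA-MB-468. Of the 6, 4 were predicted to be base-paired, the 3 deepest among them, and these are absent from the counts made without paired bases. The annotation lists 8 pseudogenes of MRPS21, the most for any called member, and the window of its last site, at position 150280608, occurs 3 times in the genome, so the origin of those reads is uncertain.

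The calls of MRPS18B, MRPL30 and MRPS16 lay in 3′UTR sequence that recurs in the genome. MRPS18B, one of the human counterparts of bacterial S18, had 8 calls in MDA-MB-468. Its main stretch had 28 of 67 counts unconverted there (41.8%) against 0 of 90 in MCF10A. These counts are summed over 5 cytosines within 8 nt that share reads, so they are not independent. Coverage per cytosine was 17 to 20 in MCF10A, where the upper Wilson limits of the single cytosines were 16.1% to 18.4%. The 21-nt windows of the 8 called sites occur 535 to 297189 times in GRCh37. None of the 8 passed the test over all shared sites, and the lowest adjusted p was 0.771 (exact test), at a site with 7 of 14 reads against 0 of 17.

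MRPL30, counterpart of bacterial L30, had 13 kept sites in MCF10A, 5 of them called with ratios from 25% to 41.2%, and no kept site in MDA-MB-468. Their windows occur 114 to 7170 times. MRPS16 had 4 calls in MDA-MB-468 with ratios from 20% to 36.4%, at positions with a coverage of 6 or less in MCF10A, and windows that occur 2 to 7278 times. At positions 75009697 and 75009696, with ratios of 25% in MDA-MB-468, MCF10A had 2 of 5 and 3 of 6 reads unconverted, too few for a test. Sites with a window that occurs 10 times or more made up 0.708% of the member sites in MCF10A but held 5 of the 36 calls, and 0.899% in MDA-MB-468 but 10 of the 28. Their unconverted share was 4.25% and 8.53%, against 2.40% and 1.74% for sites with a window that occurs once. Whether reads from other copies contributed was not tested.

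The remaining calls were single cytosines. In MDA-MB-468 these were 2 sites of MRPL12, the flexible stalk protein of the large subunit, with 15 of 287 reads in the coding sequence and 10 of 148 in the 3′UTR, the deepest called sites of that line and the lowest ratios (5.23% and 6.76%). The coding site had 8 of 94 reads unconverted in MCF10A, a higher ratio of 8.51% that was not called (adjusted p = 0.0613, exact test), so the call in 1 line alone does not separate the libraries. In MCF10A the single sites were in MRPL15, MRPL16, MRPL17, MRPL28, MRPL49 and MRPS7, with 1 each, and in MRPL37 and MRPS15, with 2 each. They rested on 4 to 7 unconverted reads, and their ratios ran from 12.3% at position 54681924 of MRPL37, a large-subunit protein with no bacterial counterpart, to 36.4% at position 36921902 of MRPS15. At the MRPL37 site the counts were 7 of 57 reads in MCF10A against 1 of 81 in MDA-MB-468 (exact test, unadjusted p = 0.00869, adjusted p = 1).

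Between the libraries, 6127 member sites on 65 genes had a coverage of at least 10 in both. Of these, 7 were higher in MDA-MB-468, all in the MRPS15 stretch, beside 0.0202% of all sites tested. None was lower (two-sided Fisher's exact test with Benjamini-Hochberg adjustment), beside 0.0691% of all sites tested, and at an unadjusted p under 0.05 there were 15 higher and 24 lower. Among sites covered by 20 or more reads in both lines, the 10 largest differences were 8 cytosines of MRPS15, higher in MDA-MB-468, and 2 of MRPL34, higher in MCF10A. Of the 28 and 24 calls at these shared sites, 5 were common to both lines, which is 17.9% of those of MCF10A and 20.8% of those of MDA-MB-468. The corresponding values over all sites kept in both libraries were 52.7% and 67.0%. Those sites also include non-coding exons and the mitochondrial chromosome, so they are not a like set for nuclear mRNAs. Summed over the shared sites the unconverted share of the members was 2.39% in MCF10A against 1.79% in MDA-MB-468. It was 2.10% and 1.83% over all sites kept in both.

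**Figure D2:**
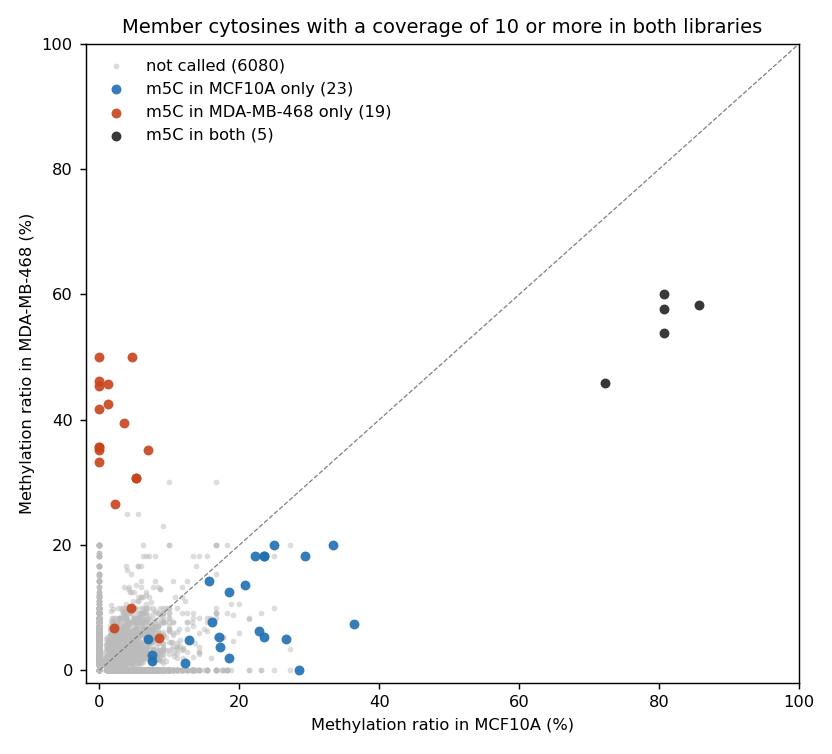
Methylation ratio in percent of each of the 6127 member cytosines with a coverage of at least 10 in both libraries, MCF10A on the horizontal and MDA-MB-468 on the vertical axis, with colors for the line in which a site was called. The 5 sites called in both lie at the right, the MRPS15 and MRPS18B sites run along the left edge, and most other cytosines lie near 0 in both.

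The unconverted share over all member sites was above the library background in MCF10A, 2.42% (2.36% to 2.48%) of 251337 counts against 1.99%, and close to it in MDA-MB-468, 1.79% (1.74% to 1.85%) of 227323 counts against 1.81%. Among the 54 members with at least 1000 counts in MCF10A the share ran from 0.686% to 5.49% with a median of 2.20%, and 41 of them were above 1.84%, the median of all genes at that depth. In MDA-MB-468 it ran from 0.660% to 9.13% over 47 members with a median of 1.61%, and 26 were above the median of all genes, 1.51%. In MCF10A the highest shares were in MRPL36 (5.49%), the counterpart of bacterial L36, MRPL37 (4.61%) and MRPS28 (4.45%), and MRPL36 and MRPS28 had no called site. In MDA-MB-468, MRPS15 stood apart and was followed by MRPS18B (2.99%) and MRPL9 (2.63%). A high gene share and a called site were therefore not the same set of genes, and MRPL36 had 1.04% in MDA-MB-468 at a similar number of counts, 1349 against 1220.

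**Figure D3:**
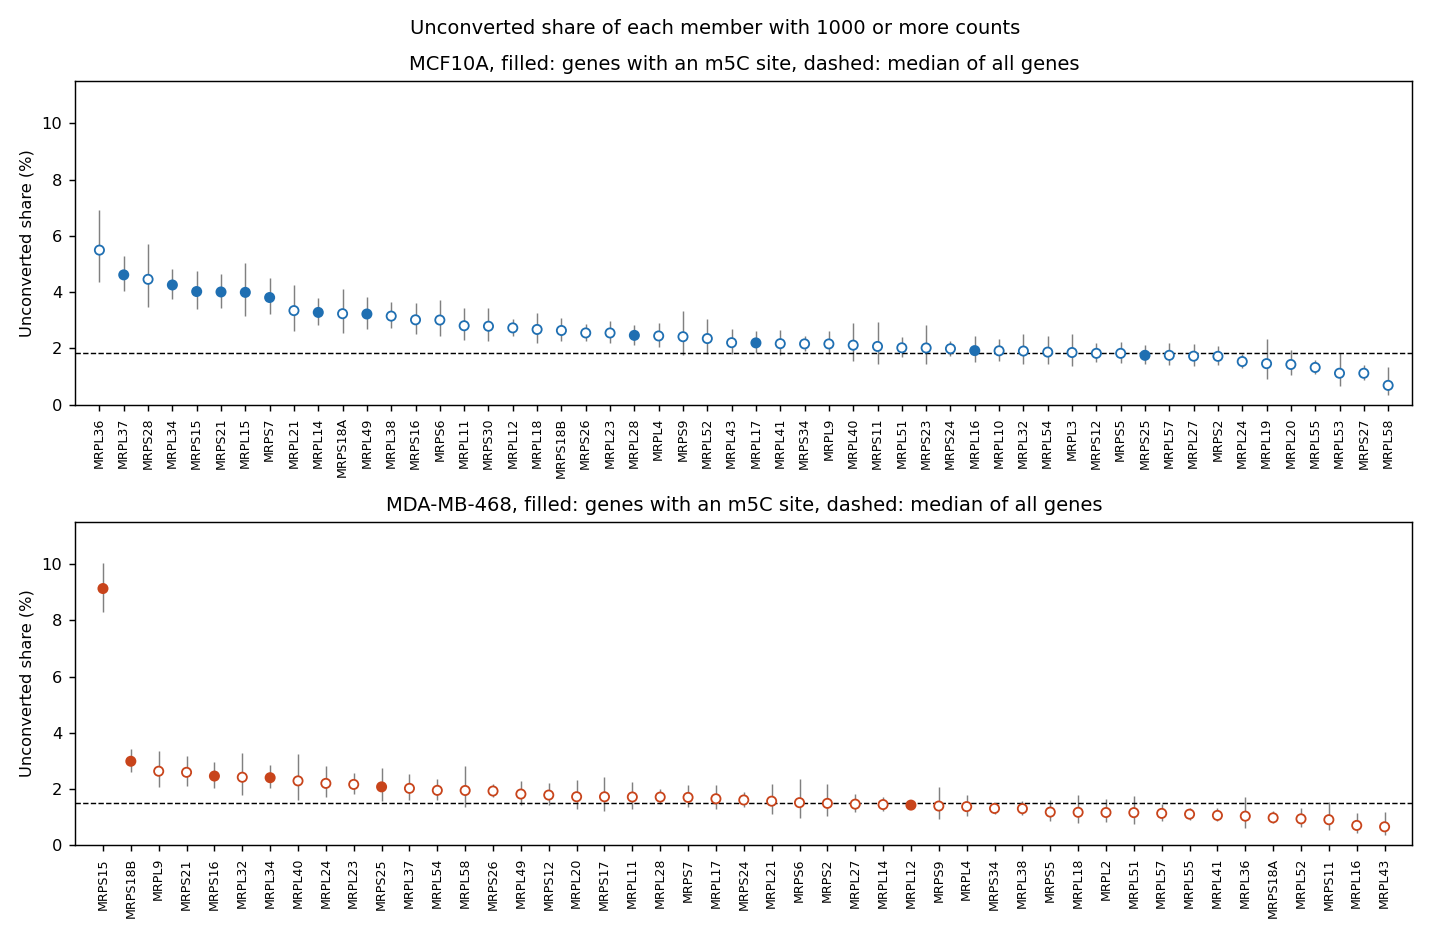
Unconverted share in percent (bars are 95% Wilson intervals) of each member with at least 1000 counts, ordered from high to low, in MCF10A (top) and MDA-MB-468 (bottom); filled points are genes with at least 1 m5C site and the dashed line is the median of all genes with at least 1000 counts. MRPS15 at 9.13% lies far above the other members in MDA-MB-468, while in MCF10A the shares fall gradually from 5.49%.

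By region of the mRNA, the members had their highest called share in the 5′UTR in MCF10A and in the 3′UTR in MDA-MB-468, an order that depended on the coverage minimum. At a coverage of 20 the coding sequence was highest in both, with 0.564% beside 0.165% in the 5′UTR of MCF10A, and 0.558% beside 0.425% in the 3′UTR of MDA-MB-468. At the coverage of 10 used here, in MCF10A, 9 of 1100 5′UTR sites were called, or 0.818% (0.431% to 1.55%), beside 2.24% for the 5′UTRs of all mRNAs, and 8 of these were in MRPL14. The coding sequence had 19 of 5777 (0.329% beside 0.615%) and the 3′UTR 8 of 2021 (0.396% beside 0.837%). In MDA-MB-468 none of 785 5′UTR sites was called (upper Wilson limit 0.487%), while the 5′UTRs of all mRNAs had 1.95%. There the coding sequence had 14 of 4408 (0.318% beside 0.551%) and the 3′UTR 14 of 1595 (0.878% beside 0.739%). That 3′UTR share was 0.139% without windows that recur in the genome, and the MRPL14 stretch in the 5′UTR was too thinly covered for calls in this line. The unconverted share of the 5′UTR sites, which needs no call, was 2.55% in MCF10A against 1.46% in MDA-MB-468, beside 2.70% and 2.56% for all mRNAs.

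**Figure D4:**
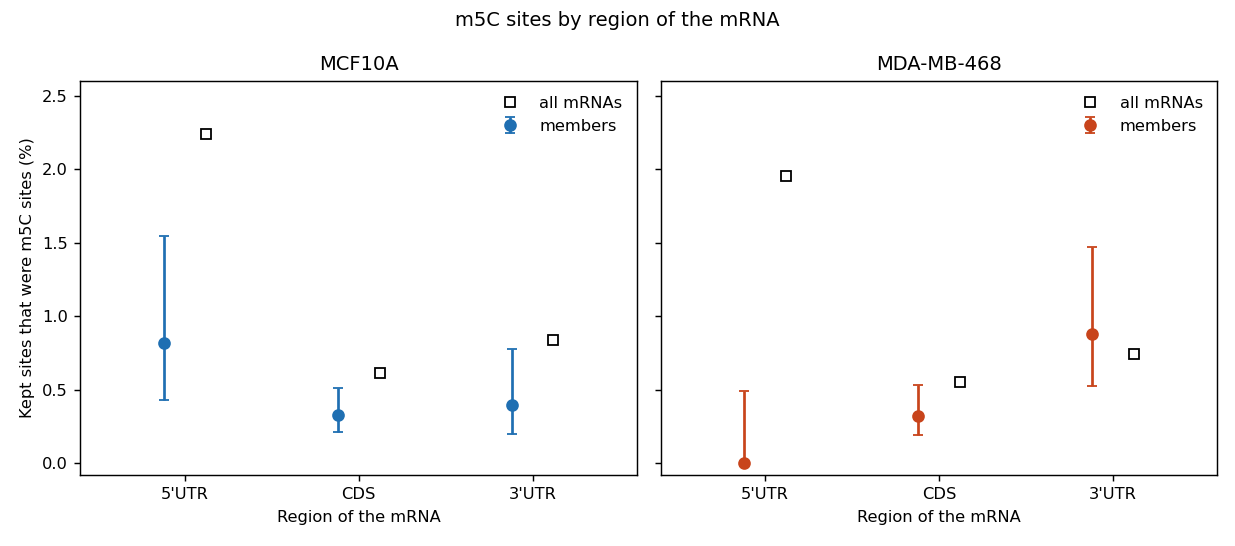
Share of kept sites that were m5C sites, in percent, in the 5′UTR, coding sequence (CDS) and 3′UTR of the member mRNAs (filled circles with 95% Wilson intervals) and of all mRNAs (open squares), per library. In the 5′UTR the members lie below all mRNAs in both lines, at 0.818% beside 2.24% in MCF10A and at 0 beside 1.95% in MDA-MB-468.

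The called shares of the 2 subunits had opposite orders in the 2 lines, but in MCF10A their intervals overlapped. Large-subunit mRNAs had 26 calls at 5384 sites (0.483%, 0.330% to 0.707%) in MCF10A and 6 at 4178 (0.144%) in MDA-MB-468. Small-subunit mRNAs had 10 at 3514 (0.285%, 0.155% to 0.523%) in MCF10A and 22 at 2610 (0.843%) in MDA-MB-468. Of the 26 large-subunit calls in MCF10A, 9 were in MRPL14 and 5 in the recurring windows of MRPL30. Without MRPS15 and with recurring windows left out, the small-subunit mRNAs had 7 calls at 3243 sites in MCF10A and 1 at 2288 in MDA-MB-468, so the MDA-MB-468 excess lay in that gene and in those windows. In the unconverted share the subunits were near each other in MCF10A, 2.44% for the large and 2.38% for the small, and without MRPS15 the small subunit had 1.79% in MDA-MB-468 beside 1.58% for the large.

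Sequence and structure around the calls were varied. Within 10 nt of another called cytosine lay 22 of the 36 sites in MCF10A (61.1%) and 23 of the 28 in MDA-MB-468 (82.1%), beside 87.3% and 87.7% of all m5C sites. Among coding sites the third codon position had 8 calls at 2134 sites in MCF10A and 7 at 1681 in MDA-MB-468, and the first position had 6 at 2026 and 4 at 1563, with overlapping intervals. Cytosines predicted to be base-paired made up 16.1% of the member sites in MCF10A against 16.3% in MDA-MB-468. They held 13 of the 36 calls (0.909% called, against 0.308% of unpaired sites) and 7 of the 28 (0.634% against 0.369%). The contribution of RNA structure to the calls was not tested.

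Read depth, which limits the calls, varied widely among the members. It is given as deposited counts per exonic cytosine and 1000000 counts of the library, so that genes of different length can be compared. The deposited counts leave out cytosines covered fewer than 5 times, so the depth of thinly covered members may be understated. In MCF10A the deepest members were MRPS24 (0.665), MRPS26 (0.545), MRPL12 (0.518), MRPL24 (0.508) and MRPS34 (0.504), and the median member had 0.0953. In MDA-MB-468 they were MRPL12 (0.694), MRPS26 (0.496), MRPL41 (0.448), MRPS24 (0.444) and MRPS34 (0.438), with a median of 0.0710. Of these deep genes only MRPL12 had a called site. No site was kept for MRPS31, MRPL1, MRPL50 and MRPS36 in MCF10A, and none for 11 members in MDA-MB-468, namely MRPS35, MRPS14, MRPL48, MRPL39, MRPL44, MRPL19, MRPL30, MRPL1, MRPL42, MRPL50 and MRPS36.

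For the 60 members with at least 1000 counts in a library, the median ratio of the MDA-MB-468 to the MCF10A depth was 0.719, with 13 higher in MDA-MB-468, beside a median of 0.503 over 7477 genes. The direction of that median depends on the scaling, because it was 1.23 (35 of 60 higher) beside 0.859 for all genes when depth was scaled by the counts of the kept sites. Kept sites held 60580227 of the 76098976 deposited counts in MCF10A but only 42429746 of 90960018 in MDA-MB-468. Both scales differ by 1 constant, so the order of the members against all genes is the same on each. MRPS17, a small-subunit protein, had the highest ratio of 3.53, from 490 to 2067 counts, and 6.02 on the other scale. It lies at chr7:56019570-56024193, on the chromosome arm of EGFR, for which the ratio was 7.60. Copy number was not measured here, and a link between these ratios was not tested. MRPS18A followed with 2.58, and the lowest were MRPL44, a large-subunit protein with an RNase III-like fold, with 0.0449 (1304 to 70 counts), and MRPS27, an RNA-binding protein of the small subunit, with 0.0633 (6467 to 489). Because cytosines covered fewer than 5 times are left out, ratios that rest on few counts in 1 library may be exaggerated. These ratios come from 1 library each and have no replicate check, and in bulk RNA fewer expressing cells and less RNA per cell cannot be told apart.

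**Figure D5:**
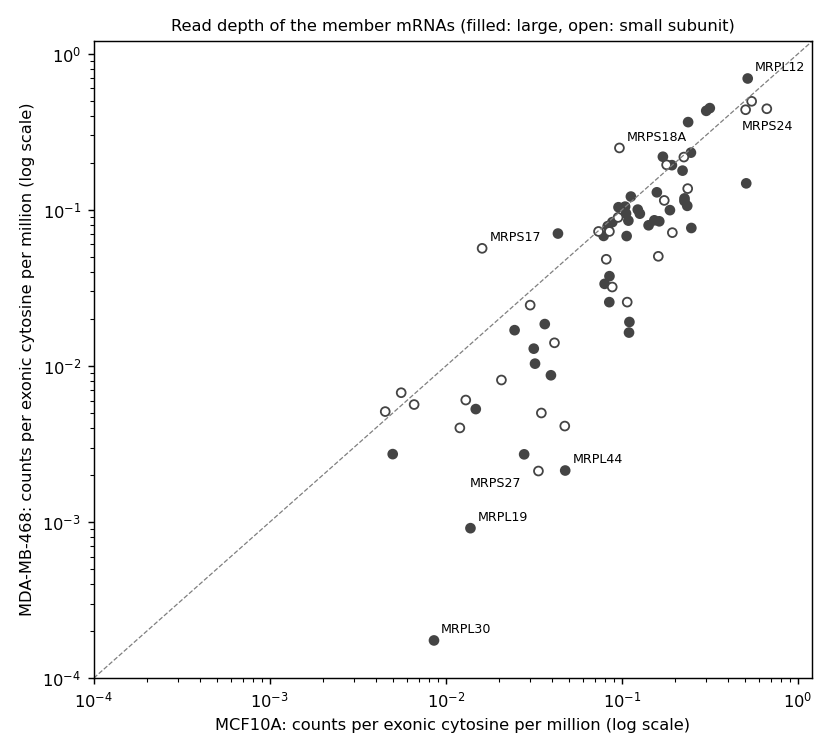
Deposited counts per exonic cytosine and 1000000 library counts of the members, MCF10A on the horizontal and MDA-MB-468 on the vertical axis, both on a log scale; filled points are large-subunit and open points small-subunit mRNAs, and the dashed line marks equal depth. MRPS17 and MRPS18A lie above the line and MRPL44, MRPS27, MRPL19 and MRPL30 far below it. Of the members, 74 genes are drawn and the other 4 had no deposited counts in at least 1 library.

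Other genes of the mitochondrial ribosome, namely 5 further structural proteins, 21 genes of assembly or rRNA modification and 11 translation factors, were counted in the same way. Of these 37 genes, 31 had 3549 kept sites in MCF10A with 19 m5C sites in 5 genes, and 23 had 2382 in MDA-MB-468 with 12 in 3 genes. The assembly and modification genes held most of these, 18 at 2252 sites in MCF10A against 8 at 1381 in MDA-MB-468, and the structural proteins had 1 at 649 sites against 4 at 549. MALSU1, which prevents premature joining of the subunits, had 10 calls in MCF10A (26.1% to 42.9%) and 7 in MDA-MB-468 (21.1% to 26.3%). DHX30, an RNA helicase of mitochondrial ribosome assembly, had 6 in MCF10A with ratios from 53.3% to 68.8%, and CHCHD1, another protein of the small subunit, had 4 in MDA-MB-468 with ratios from 14.7% to 30.8%. The rRNA methyltransferase MRM1, the large-subunit protein GADD45GIP1 and the endoribonuclease YBEY had 1 call each in MCF10A, and the GTPase MTG1 had 1 in MDA-MB-468. None of the translation factors had a call in either line, at 648 and 452 kept sites. The unconverted share over these genes was 1.81% in MCF10A against 1.44% in MDA-MB-468, beside 2.42% and 1.79% for the ribosomal protein mRNAs.

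The labelled lines were checked against epithelial markers. All 6 epithelial genes had kept sites in MDA-MB-468, while EPCAM and CDH1, which define epithelial cells, had none in MCF10A, where KRT7, KRT8, KRT18 and KRT19 had. All 6 had a lower depth in MCF10A. KRT7 had 4.17 against 5.77 in MDA-MB-468, KRT8 0.112 against 0.758, KRT18 0.126 against 1.15 and KRT19 0.0577 against 14.2. The 42 KRT19 sites kept in MCF10A had an unconverted share of 63.9%, and 40 of them were called. The 7 basal epithelial genes went both ways. LAMB3 had a depth of 3.47 in MCF10A against 0.000535 in MDA-MB-468, KRT5 0.351 against 0.109 and KRT6A 0.0932 against 0.00138, while KRT17 had 0.269 against 1.999 and CDH3 0.0277 against 0.0308. KRT14 and TP63 had no kept site in either library. EGFR, which is amplified in MDA-MB-468, had 0.0776 and 0.589. Of the markers of other cell types, the fibroblast gene COL1A1 had 267 kept sites in MDA-MB-468, at a depth of 0.0368 against 0.00224 in MCF10A, where none was kept. The fibroblast genes COL1A2 and COL3A1 and the leukocyte genes PTPRC and CD3E had no deposited counts in either library. The endothelial gene PECAM1 had no exonic cytosine in the annotation as used, so it could not be checked.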

How the data were processed

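One RNA bisulfite library of each line was used. The authors deposited, per cytosine, the count of unconverted and of converted reads, without normalization or p-values, from a coverage of 5. The study's methods name trimming, alignment to hg19 with MeRanTK and a removal of predicted paired bases, while the submitters' processing notes list Trim Galore, Bismark and hg19, with no version given in the sources used here. The files still hold paired bases.

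The members, gene lists and tests were chosen with earlier results of these data known. Sites covered 10 times or more on same-strand exons or the mitochondrial chromosome were kept (median coverage 18 in each library, 23 for the members), and all nuclear ones fell on a cytosine of GRCh37. A site on several regions was assigned to the 5′UTR first, then the CDS. Paired bases were predicted with ViennaRNA 2.7.2 (MEA, gamma 0.1, 70 degrees, pairing distance up to 150 nt), in windows of 2000 nt for transcripts over 3000 nt, a lower limit than in the methods. Calls, differences and shares were computed with scipy 1.17.1 in Python 3.11.15. The calls and the test between libraries were also run on simulated counts. That simulation drew each cytosine independently and planted changes only at well covered sites. It therefore does not cover clustered or thinly covered calls. Differences between the libraries were tested with Fisher's exact test in place of the QNB method of the study. Two-library p-values cover reads, not cultures. A window of 21 nt around each cytosine was counted on both strands of the genome.

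Genes were named by rule: those with a differing site, per line the 8 with the most m5C sites, the 5 called sites of highest ratio at a coverage of at least 20 and the 5 of highest coverage, the sites called in both lines, the 10 largest differences, the 5 deepest members, those with no kept site, and the 3 with the highest unconverted share at 1000 counts or more. The single-site genes, the depth ratios of MRPS17, MRPS18A, MRPL44, MRPS27 and MRPL36 and the profile of MRPL30 were added after their values were seen. Alternatives covered coverage, background, test, ratio, structure, shared exons, neighbours, region priority, recurring windows and scaling.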

Additional observations from a re-analysis of the deposited data

How the results depend on the processing

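No paired analysis was possible because each line had 1 library. Of the 95 alternative values for counts and shares, 71 stayed within the limits set for a change. The 7 higher sites of MRPS15 passed the test between the libraries under every alternative in which that test was rerun. As m5C calls of MDA-MB-468, all 7 were lost when calls with another call within 10 nt were left out. When only sites called in at least 1 line were adjusted, 12 sites were higher, 8 of MRPS15 and 4 of MRPS18B. That set was chosen by the same counts, so the added passes are no further support. No site was lower under any alternative of the test. The m5C sites of MCF10A fell from 36 to 23 with the members' own background, 21 at a coverage of 20, 23 without paired bases and 14 without neighbouring calls, and those of MDA-MB-468 from 28 to 16 without recurring windows and 5 without neighbouring calls. The number of genes with calls stayed within 1.5 times. At a coverage of 20 the called share of the 5′UTR in MCF10A was 0.165%, that of the CDS 0.564% in MCF10A against 0.558% in MDA-MB-468, and that of the 3′UTR 0 in MCF10A against 0.425% in MDA-MB-468. Without recurring windows the 3′UTR share was 0.162% in MCF10A against 0.139% in MDA-MB-468, and without paired bases the CDS share of MCF10A was 0.206%. With the canonical transcript alone the 5′UTR share of MCF10A was 1.53%. The unconverted share of MCF10A was 2.26% at a coverage of 20, 2.50% at 5, 2.96% as a mean over genes and 2.35% without paired bases, and that of MDA-MB-468 was 1.65%, 1.91% and 2.13% for the first 3, and 1.74% without recurring windows. The median depth ratio moved from 0.719 to 1.23 when scaled by the kept counts, and its direction turned. The causes of these changes were not tested, apart from the fewer sites that each filter leaves.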

Other observations

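Among the members with at least 1000 counts in a library, the 8 with the highest depth ratios of MDA-MB-468 to MCF10A lay on several chromosomes. MRPS17 had 3.53, MRPS18A 2.58, MRPL2 1.63, MRPL54 1.54, MRPL14 1.43, MRPL41 1.42, MRPL12 1.34 and MRPL38 1.28. Of these, 3 lie near each other on chromosome 6, a grouping noticed after the values were seen and not tested: MRPL2 (chr6:43021767-43027176, 1456 to 2834 counts), MRPS18A (chr6:43638939-43655528, 2429 to 7481 counts) and MRPL14 (chr6:44081188-44095189, 5519 to 9444 counts). MRPS10, at chr6:42174545-42185599, had 1.21 on 173 and 250 counts, and MRPS18B, on the same chromosome arm at chr6:30585617-30594169, had 0.970. Scaled by the counts of the kept sites, the ratios of these 5 genes were 2.78, 4.40, 2.44, 2.06 and 1.65, so the direction for MRPS18B turned. The median member was at 0.719 on the first scale and 1.23 on the second, and no replicate checks these values.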
